A study of Mus musculus with 594 samples.

Results

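CRA-024781 is a hydroxamic acid that inhibits histone deacetylases and has been in clinical trials as a cancer drug, where it is also called abexinostat. Here it was given at 1.5 µM to the mouse pancreatic lines αTC1 and βTC3, and RNA was measured on arrays after 1, 6 and 24 h. All arrays whose title names CRA-024781 were taken, which gave 18 of the 594 arrays of the series. They were compared with the 76 arrays of cells given DMSO, the solvent, always within the same line and time. In αTC1 there were 3 CRA-024781 arrays at each time, against 14 DMSO arrays at 1 h, 14 at 6 h and 14 at 24 h. In βTC3 there were likewise 3 CRA-024781 arrays at each time, against 12 DMSO arrays at 1 h, 10 at 6 h and 12 at 24 h. The whole study profiled 29 compounds that act on chromatin enzymes, with the aim of finding genes that such enzymes control in pancreatic alpha and beta cells.

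Both lines are tumour lines from transgenic mice that carry the SV40 T antigen. In αTC1 the transgene was driven by the glucagon gene's promoter, and in βTC3 by an insulin promoter. T antigen binds the p53 and RB proteins, so both lines stand for dividing tumour cells and not for resting islet cells, and each is a single line. No label says whether arrays of a group came from separate cultures. The 3 CRA-024781 arrays of a group each belonged to another batch, as the titles name it (7, 8 and 9 in αTC1, 7, 8 and 10 in βTC3), and each of those batches also held DMSO arrays of the same line and time. All p-values below measure the spread between arrays, which may be technical.

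Histone deacetylases remove acetyl groups from lysines of histones and other proteins, and acetylated histones mark open, active chromatin. The zinc-dependent enzymes hold a zinc ion in the active site, and hydroxamic acids block them by binding it. In proliferating cells such inhibitors are known to raise acetylation within minutes to hours, to induce inhibitors of the cell cycle, and to lower as well as raise the RNA of many genes.

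The hormone genes matched the labels. Ins2, which encodes insulin, had a log2 intensity of 13.19, 13.05 and 13.16 in the 3 βTC3 arrays after 24 h of CRA-024781, against 13.02 to 13.36 in DMSO (median 13.24). Gcg, which encodes glucagon, had 12.38, 12.52 and 12.49 in αTC1 under CRA-024781 at 24 h, against 11.90 to 12.74 under DMSO (median 12.31). Neither line was pure for 1 hormone by these measures. βTC3 also held somatostatin RNA (Sst), at 12.94, 12.78 and 12.84 under CRA-024781 and 12.42 to 12.86 under DMSO at 24 h, and its Gcg ran from 7.61 to 9.89 under CRA-024781 and from 6.18 to 10.43 under DMSO. Summed over the 15 measured markers of exocrine, duct, stromal, endothelial and immune cells, the intensity at 24 h was 158 to 185 under CRA-024781 and 160 to 219 under DMSO in αTC1, and 134 to 163 under CRA-024781 and 111 to 125 under DMSO in βTC3. At that time 5 of the 15 were called higher and 1 lower in αTC1, and 3 higher and none lower in βTC3. Of all genes 21.1% rose in each line, and 19.1% fell in αTC1 and 18.1% in βTC3. Most of the 15 read near the floor of the array, which makes up much of the sums. In αTC1 the brightest under DMSO, Cela1, fell by a log2 of 2.01, from a mean of 6.05 to 4.04. The part of these cells' RNA in the results below was not tested. Vim (vimentin, a filament protein of mesenchymal cells) rose by a log2 of 1.98 in βTC3 (SE 0.20, adjusted p = 1.24e-13) and by 1.27 in αTC1 (SE 0.16, adjusted p = 4.28e-10).

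Few genes were called after 1 h of CRA-024781, and many after 6 h. Of 11807 genes tested, 7 were called in αTC1 at 1 h (0.0593% of the genes), all higher, and 80 in βTC3 (0.678%), of which 46 were higher (0.39%) and 34 lower (0.288%). These counts at 1 h rested on single arrays: without replicate 1, 2 or 3 of CRA-024781, 1, 3 and 6 genes were called in αTC1, and 8, 10 and 1337 in βTC3. Calls were made at a limma adjusted p under 0.05 over all genes, with batch in the model. Before adjustment, 593 genes in αTC1 and 2280 in βTC3 had a limma p under 0.05 at 1 h. A gene that was not called is thus not shown to be unchanged. At 6 h, 4118 genes were called in αTC1 (34.9%) and 4533 in βTC3 (38.4%), and at 24 h, 4742 (40.2%) and 4624 (39.2%). At 6 h 2323 genes were higher (19.7%) and 1795 lower (15.2%) in αTC1, and 2419 higher (20.5%) and 2114 lower (17.9%) in βTC3. At 24 h αTC1 had 2491 higher (21.1%) and 2251 lower (19.1%), and βTC3 had 2489 higher (21.1%) and 2135 lower (18.1%). Which direction held more genes depended on the processing: with arrays centred on their medians αTC1 had 2053 higher and 2170 lower at 6 h and 2300 higher and 2522 lower at 24 h, and without dim genes the numbers at 24 h were 1762 higher and 1909 lower in αTC1 and 1716 higher and 1814 lower in βTC3. Changes of at least 2-fold, a log2 change of 1, were fewer: 493 up (4.18% of the genes) and 301 down (2.55%) in αTC1 and 532 up (4.51%) and 447 down (3.79%) in βTC3 at 6 h. At 24 h there were 690 up (5.84%) and 521 down (4.41%) in αTC1, and 512 up (4.34%) and 448 down (3.79%) in βTC3.

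**Figure D1:**
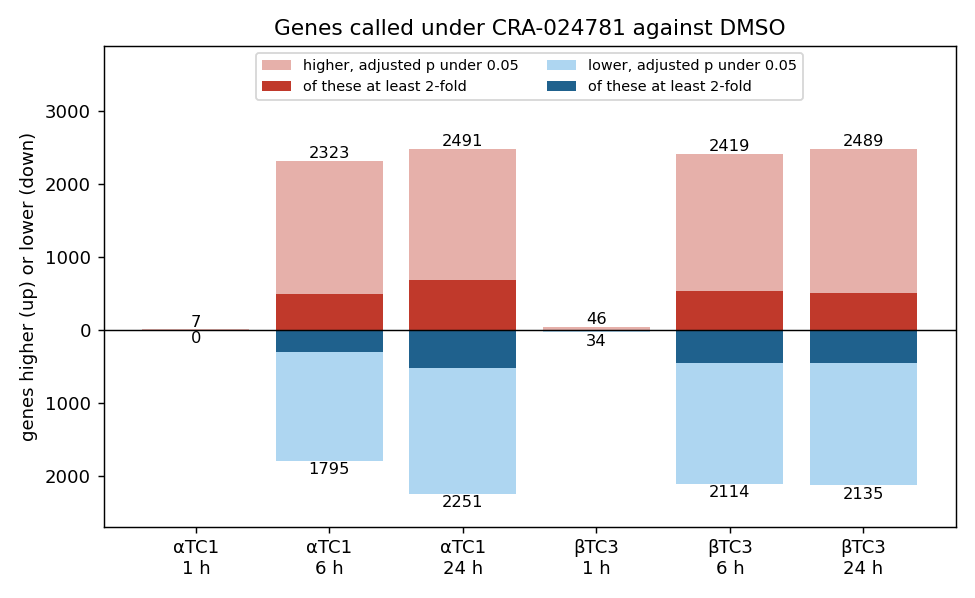
Number of genes higher (above the line) or lower (below it) under CRA-024781 than under DMSO, by line and time, at a limma adjusted p under 0.05; the darker part of each bar holds changes of at least 2-fold. The bars at 1 h are barely visible with 7 and 80 genes, and those at 6 and 24 h hold 4118 to 4742 genes each.

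The 3 arrays of a group agreed well at the later times and poorly at 1 h. Each CRA-024781 array was set against the DMSO arrays of its own batch, and these changes were correlated between arrays over all 11807 genes. At 6 and 24 h the correlations lay between 0.71 and 0.88 in both lines. At 1 h they were -0.07, 0.07 and -0.32 in αTC1 and 0.38, 0.05 and 0.22 in βTC3. Genes are not independent replicates, so these values are descriptions. Of the genes called at 24 h, 4473 of 4742 in αTC1 and 4421 of 4624 in βTC3 lay on the same side of the DMSO mean of their own batch in all 3 arrays. At 1 h all 7 genes called in αTC1 and all 80 in βTC3 did so too. The calls were made from these same arrays, so such counts are no separate measure of agreement.

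At 1 h a few genes rose in both lines, among them Txnip, Tob2 and Sertad3 from a list of early responders to deacetylase inhibitors. Txnip encodes the thioredoxin-interacting protein, which binds thioredoxin and lowers glucose uptake. In αTC1 its log2 intensity was 8.27, 9.33 and 8.62 in the CRA-024781 arrays, against 6.47 to 7.94 in DMSO (median 7.26). All 3 CRA-024781 arrays lay above all 14 DMSO arrays, and the change was 2.98-fold (log2 1.57, SE 0.24, adjusted p = 5.76e-05). In βTC3 Txnip had 9.07, 8.33 and 8.48, against 6.46 to 8.07 (median 7.43), again without overlap, with a change of 2.44-fold (log2 1.29, SE 0.14, adjusted p = 4.79e-10). Its rise was not brief: at 24 h it was 5.66-fold in αTC1 and 4.16-fold in βTC3.

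Tob2, a member of the antiproliferative TOB/BTG family, also rose in both lines at 1 h. It read 7.27, 7.46 and 6.86 under CRA-024781 and 5.52 to 6.84 under DMSO in αTC1 (2.25-fold, adjusted p = 0.0186), and 7.87, 8.0 and 7.47 against 5.44 to 7.19 in βTC3 (2.68-fold, adjusted p = 9.3e-04). The groups did not overlap, although in αTC1 the third array stood only just above the highest DMSO array. Of the 7 genes called in αTC1, 5 were also called higher in βTC3, namely Txnip, Tob2, Sertad3, Clp1 and Zkscan14, and the other two, Tspan12 and Zfp772, were not. Of the 18 genes listed as early responders to deacetylase inhibitors, 3 rose in αTC1 and 7 rose in βTC3, and none fell in either line. Of all genes 0.0593% rose in αTC1 and 0.39% in βTC3. The list was chosen with earlier results of these data known.

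More genes were called at 1 h in βTC3 than in αTC1, but the difference between lines was not tested at 1 h. The order of the counts depended on the model: with only the arrays of the groups compared, 4 genes were called in αTC1 and 1 in βTC3. Ptger4, a receptor for prostaglandin E2, had 4.65, 5.44 and 5.10 under CRA-024781, against 3.62 to 4.38 under DMSO (2.45-fold, SE 0.17 on the log2 scale, adjusted p = 7.57e-07). Ier3, an early gene of the NF-κB and stress response, had 6.53, 6.87 and 6.59, against 4.98 to 6.36 (1.89-fold, adjusted p = 9.3e-04). Of 15 immediate early genes 3 rose (Ier3, Junb and Klf4), against 0.39% of all genes that rose. Falls were smaller. Nfkbia encodes the inhibitor that holds NF-κB in the cytoplasm, and it had 6.13, 6.64 and 6.60 under CRA-024781 against 6.82 to 7.76 under DMSO (1.72-fold lower, adjusted p = 9.3e-04). In all 3 of these genes the CRA-024781 arrays lay outside the DMSO range. Averaged over all their probe sets, the log2 changes were smaller, at 0.76 for Ptger4 and 0.74 for Txnip in βTC3 and 0.69 for Tob2 in αTC1, and still called. Tob2 in αTC1 was no longer called without replicate 1 or 2 of CRA-024781 (adjusted p = 0.426 and 0.436), nor Ier3 in βTC3 without replicate 2 (0.0601) or Nfkbia without replicate 1 (0.0532). Across all genes tested at 1 h the CRA-024781 arrays did not overlap the DMSO arrays for 0.254% of genes in αTC1 and 0.686% in βTC3.

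**Figure D2:**
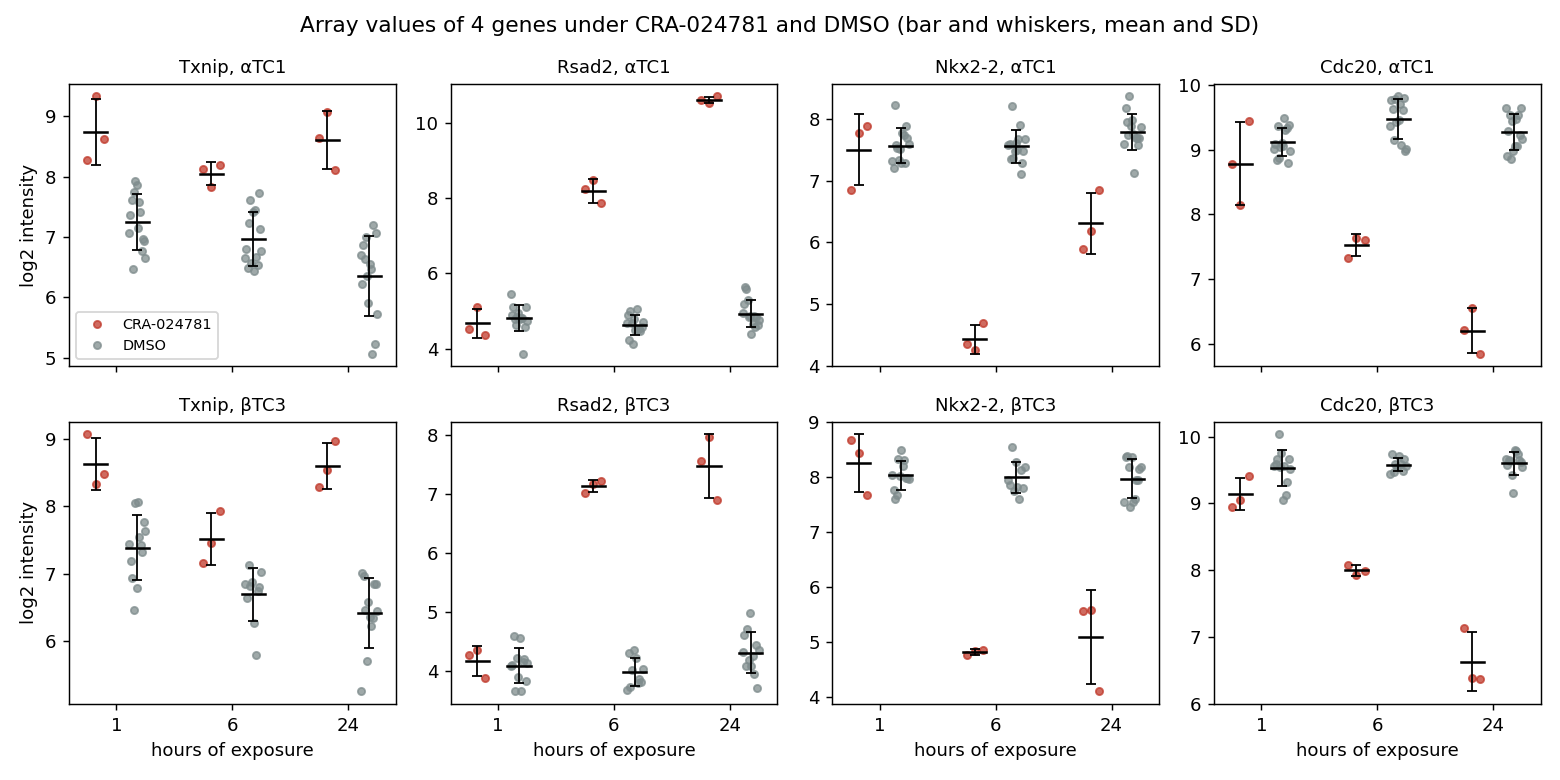
Log2 intensity of Txnip, Rsad2, Nkx2-2 and Cdc20 in every CRA-024781 array (red, left in each pair) and DMSO array (grey, right) by hours of exposure, αTC1 above and βTC3 below; bars are means and whiskers SD. Txnip was already higher at 1 h, while Rsad2, Nkx2-2 and Cdc20 first separated at 6 h, and Nkx2-2 read higher at 24 h than at 6 h in αTC1.

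The largest changes given here for 6 and 24 h were taken from the called genes whose CRA-024781 arrays did not overlap the DMSO arrays, so that the lack of overlap was part of the choice. Over all genes the arrays did not overlap, in either direction, for 22% in αTC1 and 26.6% in βTC3 at 6 h, and for 25.5% and 20.2% at 24 h. By 6 h the largest rises of this kind in αTC1 were in Rsad2, Rab40b, Gsta4, Rras, Akap12, Eaf2, Serpini1 and Prss16, each 7.31-fold to 12.2-fold. Rsad2 encodes viperin, an antiviral enzyme usually induced by interferon. It had 8.24, 8.49 and 7.87 under CRA-024781, against 4.12 to 5.05 under DMSO (log2 change 3.61, SE 0.19, adjusted p = 2.43e-26). Rras, a small GTPase of the RAS family, had 6.21, 6.66 and 6.19, against 2.78 to 3.30 (log2 change 3.39, SE 0.13, adjusted p = 1.37e-34). No CRA-024781 array of either gene came within a log2 of 2 of the DMSO range.

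The largest falls in αTC1 at 6 h were in Kcnk2, Nkx2-2, Slc38a4, G6pc2, Macroh2a2, D17H6S56E-5, Rwdd3 and Nbn, each 4.63-fold to 13.2-fold. Kcnk2 encodes TREK-1, a potassium channel that sets the resting potential. Its log2 intensity was 4.29, 4.10 and 4.92 under CRA-024781 and 7.70 to 8.55 under DMSO (log2 change -3.72, SE 0.17, adjusted p = 5.65e-30). Slc38a4, a transporter of neutral amino acids, read 4.97, 4.12 and 5.56, against 6.71 to 8.41 (log2 change -3.18, SE 0.23). The lowest DMSO array of Kcnk2 stood further from the CRA-024781 arrays than that of Slc38a4 did.

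In βTC3 at 6 h Crabp2, Insl6, Ptger4, Eaf2, Rsad2, Abhd3, Arg2 and Tnfaip8 led the rises, at 7.61-fold to 16.4-fold. Crabp2 carries retinoic acid to its nuclear receptors. It had 6.82, 6.96 and 7.14 under CRA-024781, against 2.99 to 3.44 under DMSO (log2 change 4.03, SE 0.25, adjusted p = 6.98e-23). Falls were led by Meox2, Nkx2-2, Slc2a5, D230025D16Rik, Tk1, Galr1, Sdcbp2 and Foxf2, at 6.15-fold to 14.4-fold. Meox2, a homeobox factor, had 6.11, 6.23 and 5.76, against 9.46 to 9.91 (log2 change -3.85, SE 0.24, adjusted p = 1.1e-22). Slc2a5, the fructose transporter GLUT5, had 6.49, 6.18 and 5.95, against 9.10 to 9.48 (log2 change -3.18, SE 0.12).

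At 24 h the largest of these rises was that of Rsad2 in αTC1. It stood at 10.60, 10.53 and 10.70 under CRA-024781 and at 4.39 to 5.63 under DMSO (median 4.86), a change of 53.9-fold (log2 5.75, SE 0.38, adjusted p = 5.84e-21). Gsta4, a glutathione transferase that detoxifies products of lipid peroxidation, followed with 9.23, 9.02 and 8.11, against 3.63 to 4.24 (32.6-fold, SE 0.29 on the log2 scale). The others of the 8 largest were Hba-a1 (an alpha globin, whose probe set may also read its near-identical copy), Akap12 (a scaffold for protein kinase A), Selenop (the selenium transport protein), Sqor (which oxidises sulfide in mitochondria), Serpini1 and Insl6, at 16.2-fold to 22.3-fold.

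The falls in αTC1 at 24 h reached 19.7-fold. Cryba2, a lens crystallin also found in endocrine islet cells, had 2.92, 3.66 and 3.73 under CRA-024781, against 7.25 to 8.11 under DMSO (log2 change -4.30, SE 0.26, adjusted p = 2.34e-22). At 6 h it had still read 7.27, 6.78 and 7.32, against 7.24 to 7.91. Kcnk2 remained low with 3.87, 3.86 and 3.48, against 7.38 to 8.46 (18.1-fold). G6pc2, the glucose-6-phosphatase of islet endocrine cells, had 4.35, 4.57 and 5.71, against 8.15 to 9.31 (17.7-fold), with the third array nearer to DMSO than the others. Ap4s1, Th, Slc38a4, Ptpmt1 and Ugt1a6a completed the 8, at 8.85-fold to 11.7-fold.

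In βTC3 at 24 h Dpyd, Crabp2, Htra1, Hba-a1, Gstk1, Mfge8, Abhd3 and Insl6 rose most, at 10.8-fold to 16.4-fold. Dpyd, which breaks down uracil and thymine, had 7.62, 7.33 and 7.36 under CRA-024781, against 2.81 to 3.64 under DMSO (log2 change 4.04, SE 0.26, adjusted p = 2.76e-22). At 6 h it had been 3.13, 4.26 and 3.00, against 2.90 to 3.32, so that only the second array stood out then. Htra1, a secreted serine protease, had 7.26, 7.01 and 7.12 at 24 h, against 3.16 to 3.80 (log2 change 3.80, SE 0.21). Neither gene rose 2-fold in αTC1, where the log2 changes were 0.86 for Dpyd and 0.18 for Htra1.

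Th and Ddc, the first enzymes of dopamine synthesis, were among the 8 largest falls in βTC3 at 24 h. Th, tyrosine hydroxylase, had 4.52, 3.65 and 3.18 under CRA-024781, against 7.63 to 8.72 under DMSO (21-fold lower, log2 change -4.39, SE 0.22, adjusted p = 1.04e-27). Ddc, which also makes serotonin, had 9.03, 7.87 and 6.85, against 10.66 to 11.42 (8.33-fold lower, SE 0.17 on the log2 scale). Both also fell in αTC1 at 24 h, Th by a log2 of 3.45 and Ddc by 2.41. Tm4sf4, Hepacam2, Slc2a5, D230025D16Rik, Ap4s1 and C1qa were the rest, at 9.48-fold to 13.1-fold.

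Genes of mitosis fell as a group. The list holds cyclins, kinases, spindle and kinetochore genes that are transcribed in the G2 and M phases. Of the 18 that were measured, 14 fell and 1 rose in αTC1 at 6 h, where 15.2% of all genes fell and 19.7% rose, and 15 fell in βTC3, where 17.9% of all genes fell. At 24 h all 18 fell in both lines, where 19.1% of all genes fell in αTC1 and 18.1% in βTC3. Their median log2 change was -0.67 in αTC1 and -1.04 in βTC3 at 6 h, and -1.38 and -1.87 at 24 h, while the median of all genes stayed within 0.015 of 0. Levels summed over the 18 genes ran from 2430 to 2890 under CRA-024781 and from 5750 to 9060 under DMSO in αTC1 at 24 h, and from 2040 to 3120 and from 7380 to 10400 in βTC3. In bulk RNA a smaller share of cells in G2 and M and less of these RNAs per cell cannot be told apart.

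Cdc20, the activator of the anaphase-promoting complex, fell most in this list. In αTC1 at 24 h it had 6.21, 6.55 and 5.85 under CRA-024781, against 8.86 to 9.64 under DMSO (8.66-fold lower, log2 change -3.11, SE 0.21, adjusted p = 6.34e-21). In βTC3 it had 7.14, 6.38 and 6.37, against 9.15 to 9.79 (8.09-fold lower, log2 change -3.02, SE 0.15, adjusted p = 3e-28). The fall was in place at 6 h, at 7.33, 7.64 and 7.61 against 8.98 to 9.82 in αTC1 and 8.09, 7.93 and 7.99 against 9.45 to 9.74 in βTC3. At 1 h it was not called in either line, with adjusted p = 0.973 and 0.0739. Of the 18 genes, 11 in αTC1 and 16 in βTC3 were further below DMSO at 24 h than at 6 h by the test of that difference, which 7.49% and 9.17% of all genes passed in that direction.

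Cenpa, the histone variant of the centromere, fell by a log2 of 2.69 in αTC1 and 2.77 in βTC3 at 24 h. Plk1, a kinase of mitotic entry and spindle assembly, fell by 2.25 and 2.53, and Aurka, a kinase of the spindle poles, by 2.30 and 2.32. Nusap1, which bundles spindle microtubules, fell by 1.51 in αTC1 and 2.34 in βTC3. For these 4 genes all CRA-024781 arrays lay below all DMSO arrays in both lines at 24 h. The promoters of the 5 genes are shown because the list moved together. Each is 300 bases, of which 250 lie before the start, from RefSeq on GRCm38.p6, in the direction of the gene. Capitals mark CCAAT, and the hexamers TTTGAA and TTCGAA that are known from cell cycle genes, searched on both strands with no overlap between them.
Cdc20, chr4:118437294-118437593, minus strand: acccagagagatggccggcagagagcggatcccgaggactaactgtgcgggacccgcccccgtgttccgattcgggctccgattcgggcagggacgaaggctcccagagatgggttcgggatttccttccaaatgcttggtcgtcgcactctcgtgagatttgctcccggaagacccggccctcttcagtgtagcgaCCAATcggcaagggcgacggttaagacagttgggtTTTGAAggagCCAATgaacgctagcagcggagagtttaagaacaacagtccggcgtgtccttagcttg
Cenpa, chr5:30666636-30666935, plus strand: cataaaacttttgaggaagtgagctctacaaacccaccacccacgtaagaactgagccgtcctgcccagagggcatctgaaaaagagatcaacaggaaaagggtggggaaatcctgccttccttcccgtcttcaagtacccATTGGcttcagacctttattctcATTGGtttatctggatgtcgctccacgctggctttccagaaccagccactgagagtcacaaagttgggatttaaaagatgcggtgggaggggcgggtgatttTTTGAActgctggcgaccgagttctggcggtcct
Plk1, chr7:122159185-122159484, plus strand: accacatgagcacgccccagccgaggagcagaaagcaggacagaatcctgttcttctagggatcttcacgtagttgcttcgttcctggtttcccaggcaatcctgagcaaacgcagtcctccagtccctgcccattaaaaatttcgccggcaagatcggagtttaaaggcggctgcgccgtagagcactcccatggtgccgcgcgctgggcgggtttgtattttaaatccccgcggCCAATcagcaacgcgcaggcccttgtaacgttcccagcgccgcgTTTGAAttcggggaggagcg
Aurka, chr2:172370521-172370820, minus strand: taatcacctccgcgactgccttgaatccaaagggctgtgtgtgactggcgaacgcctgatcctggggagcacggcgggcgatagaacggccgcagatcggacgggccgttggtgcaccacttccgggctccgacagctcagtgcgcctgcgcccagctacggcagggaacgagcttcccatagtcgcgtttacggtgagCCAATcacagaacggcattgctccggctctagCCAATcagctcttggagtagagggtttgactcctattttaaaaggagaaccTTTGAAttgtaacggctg
Nusap1, chr2:119618048-119618347, plus strand: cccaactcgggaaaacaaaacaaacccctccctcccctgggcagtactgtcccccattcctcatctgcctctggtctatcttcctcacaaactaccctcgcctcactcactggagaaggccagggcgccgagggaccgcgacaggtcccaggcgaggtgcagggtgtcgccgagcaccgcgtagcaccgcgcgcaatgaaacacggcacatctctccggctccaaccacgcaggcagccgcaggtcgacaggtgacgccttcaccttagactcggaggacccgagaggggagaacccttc
TTTGAA lay at -18 in Cdc20, 17 in Cenpa, 31 in Plk1 and 33 in Aurka, counted from the annotated start, and each of these 4 promoters also held CCAAT. The Nusap1 window held neither. Of the 15 mitosis genes with an entry, 12 (80%) held 1 of the hexamers together with CCAAT, against 7.52% of the 32851 promoters of the table. A match describes the letters and does not show that a factor bound there.

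Most genes of DNA replication fell too. Of 18 measured, 12 fell in αTC1 and 15 in βTC3 at 6 h, against 15.2% and 17.9% of all genes, and 10 in αTC1 and 16 in βTC3 at 24 h, against 19.1% and 18.1%. Their median log2 changes were -0.52, -0.75, -0.43 and -0.59. Tk1, thymidine kinase, changed most. In βTC3 at 6 h it had 5.20, 4.94 and 4.52 under CRA-024781, against 7.52 to 8.18 under DMSO (7.09-fold lower, SE 0.19 on the log2 scale, adjusted p = 6.2e-21). All 4 comparisons at 6 and 24 h showed it at least 4.32-fold lower with no overlap. Rrm2 and Rrm1, subunits of ribonucleotide reductase, and Tyms, thymidylate synthase, were others: Rrm2 fell by a log2 of 1.52 to 1.82 in αTC1 and 1.48 to 1.67 in βTC3, and Tyms by 1.87 in αTC1 and 1.73 in βTC3 at 24 h. Averaged over its probe sets, Tyms fell by 0.60 and 0.51.

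Among inhibitors of cyclin-dependent kinases the members parted. Cdkn1c, which encodes p57, had 8.54, 8.84 and 8.43 in αTC1 under CRA-024781 at 24 h, against 5.75 to 6.89 under DMSO (6.09-fold higher, adjusted p = 1.72e-17), and 7.41, 7.27 and 7.84 against 4.59 to 5.51 in βTC3 (4.97-fold higher, adjusted p = 6.98e-18). Cdkn1a, which encodes p21 and is often used as the marker of deacetylase inhibition, moved little. It had 8.68, 8.79 and 8.91 against 7.27 to 8.75 in αTC1 at 24 h (1.49-fold higher, adjusted p = 0.00945), a call that ended without replicate 2 of CRA-024781 (adjusted p = 0.102) or with the mean of its probe sets (adjusted p = 0.357), and 8.98, 9.26 and 8.75 against 8.73 to 9.38 in βTC3 (log2 change 0.07, SE 0.11, adjusted p = 0.686). Cdkn1b, which encodes p27, fell 3.19-fold in βTC3 at 6 h and 2.12-fold at 24 h, and 2.04-fold in αTC1 at 6 h. Cdkn2c fell in all 4 of these comparisons, by a log2 of 0.51 to 1.21.

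In the list of G1 cyclins and MYC partners, rises and falls were near balance, at 5 and 4 of 16 in αTC1 and 4 and 6 in βTC3 at 6 h, and 4 and 3 in αTC1 and 6 and 6 in βTC3 at 24 h. Of all genes 19.7% rose and 15.2% fell in αTC1 at 6 h, and 20.5% and 17.9% in βTC3. At 24 h these shares were 21.1% and 19.1% in αTC1 and 21.1% and 18.1% in βTC3. Ccnd2, cyclin D2, stood out with 6.51, 6.85 and 6.19 under CRA-024781 at 24 h in αTC1, against 2.87 to 3.50 under DMSO (9.8-fold higher, SE 0.21 on the log2 scale), and 5.85, 5.69 and 6.29 against 2.92 to 3.25 in βTC3 (7.54-fold higher, SE 0.26). The mean of all Ccnd2 probe sets rose less, by a log2 of 1.47 in αTC1 and 1.34 in βTC3. Cdk4, the kinase that cyclin D binds, fell by a log2 of 1.51 in αTC1 and 1.26 in βTC3 at 6 h and by 1.67 and 0.86 at 24 h. Ccnd1 and Myc were dim in both lines. Myc had 3.81, 4.22 and 4.07 against 3.27 to 4.26 in αTC1 at 24 h, which was not called (adjusted p = 0.0575).

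Genes for deacetylases themselves moved in part. Of 8 measured, which include Sirt1, an NAD-dependent deacetylase outside the zinc-dependent classes, 4 rose and 1 fell at 6 h in both lines, 3 rose and 1 fell in αTC1 at 24 h, and 2 rose and 1 fell in βTC3. At 24 h 21.1% of all genes rose in each line. Hdac1 had 9.60, 9.77 and 9.66 in αTC1 at 6 h under CRA-024781, against 8.36 to 8.66 under DMSO (2.28-fold higher, log2 change 1.19, SE 0.083), and 9.81, 9.78 and 9.87 against 8.77 to 9.15 in βTC3 (1.74-fold higher). It was still 1.65-fold and 1.56-fold higher at 24 h. Hdac11 rose by a log2 of 1.30 in βTC3 and 0.49 in αTC1 at 6 h, and Hdac2 did not pass in any comparison, with log2 changes of -0.09 to 0.22. Of the histone genes H1f2, a linker histone, rose 7.4-fold in αTC1 and 2.87-fold in βTC3 at 24 h, while H2ax fell by 1.53 and 2.55 on the log2 scale.

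**Figure D3:**
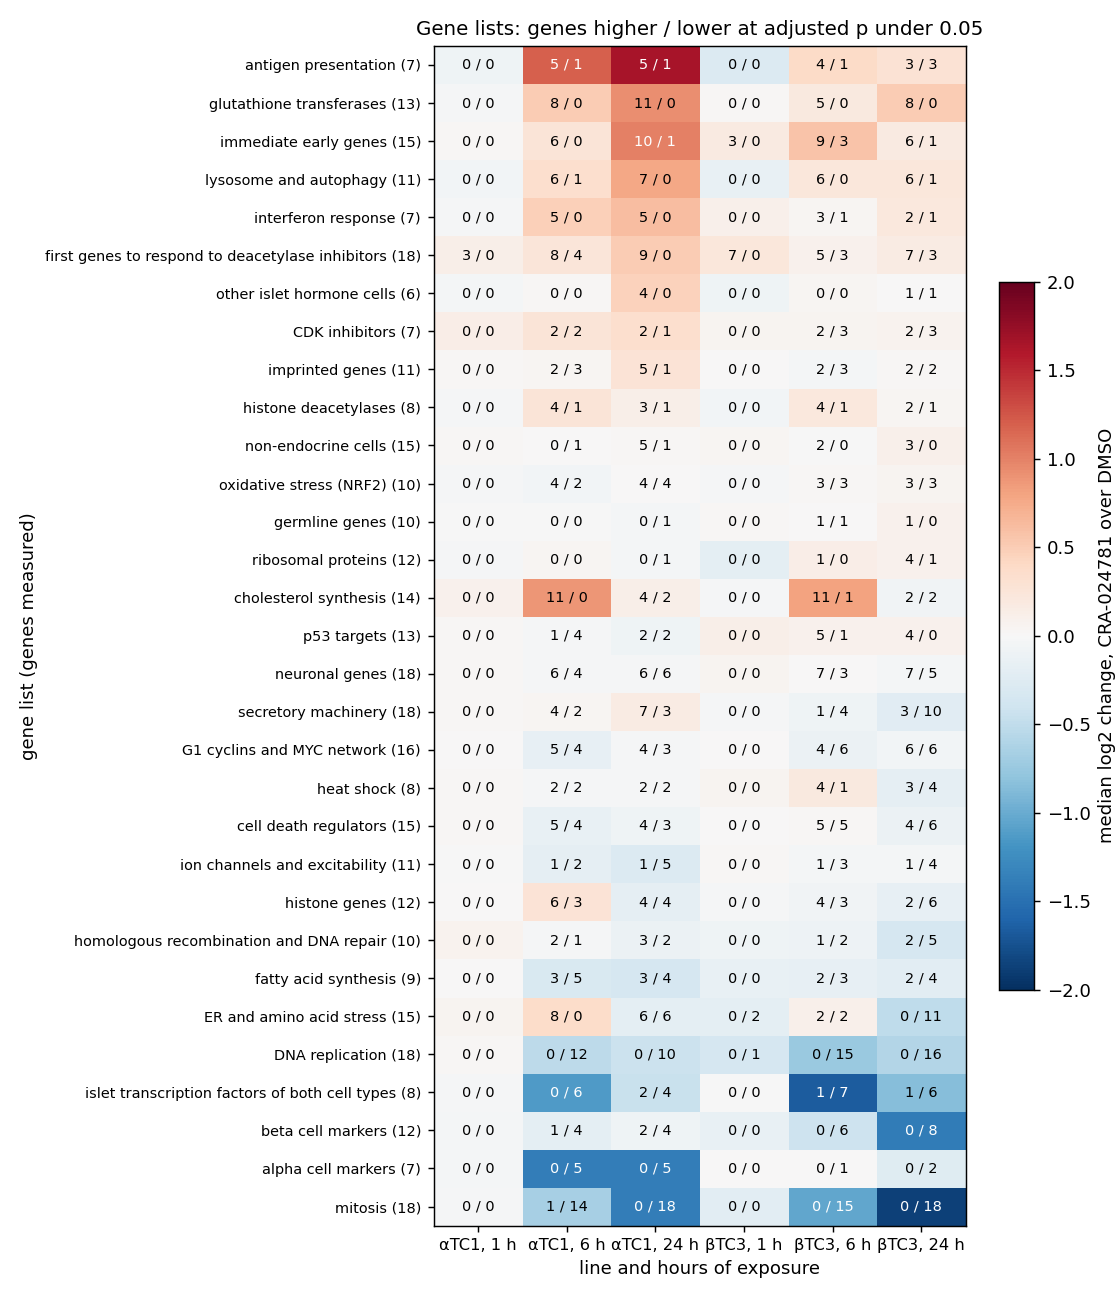
Each cell gives the number of genes of a list that were higher / lower under CRA-024781 than under DMSO at adjusted p under 0.05, by line and time; colour is the list's median log2 change and the number after a list's name is how many of its genes were measured. The 2 columns at 24 h hold 18 falls of 18 for mitosis, and the rises of cholesterol synthesis stand in the columns at 6 h.

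Transcription factors that define islet cells fell at 6 h and in part came back. Of 8 factors shared by alpha and beta cells, 6 fell in αTC1 and 7 fell with 1 rise in βTC3 at 6 h, against falls of 15.2% and 17.9% of all genes, with median log2 changes of -1.13 and -1.67. At 24 h, 4 fell and 2 rose in αTC1 and 6 fell and 1 rose in βTC3, with medians of -0.45 and -0.85. The difference between times passed for 4 of the 8 in each line, each time upward, where 6.57% of all genes in αTC1 and 9% in βTC3 passed in that direction. Neurod1, a factor for insulin gene transcription, shows the course: it had 9.37, 8.76 and 8.98 in βTC3 at 6 h, against 9.70 to 10.86 (2.68-fold lower), and 10.58, 9.85 and 10.52 at 24 h, against 9.90 to 10.89 (adjusted p = 0.432). Isl1 likewise fell 3.84-fold at 6 h and 1.68-fold at 24 h in βTC3. Pax6 did not come back in βTC3, with 7.77, 7.64 and 7.44 against 9.61 to 10.00 at 6 h and 7.59, 7.25 and 7.10 against 9.51 to 10.11 at 24 h (5.2-fold lower). The mean of its probe sets at 6 h fell by a log2 of 1.38, where the brightest set fell by 2.25.

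Nkx2-2, a homeobox factor needed for beta cell identity and also present in alpha cells, was among the largest falls in both lines. In βTC3 it had 4.76, 4.85 and 4.86 at 6 h under CRA-024781, against 7.60 to 8.54 under DMSO (10.8-fold lower, adjusted p = 2.94e-23), and 5.58, 5.59 and 4.11 at 24 h, against 7.46 to 8.38 (7.75-fold lower). In αTC1 it had 4.35, 4.25 and 4.70 at 6 h, against 7.12 to 8.21 (9.35-fold lower), and 5.89, 6.18 and 6.85 at 24 h, against 7.12 to 8.37 (2.76-fold lower, adjusted p = 7.25e-08). No array of CRA-024781 overlapped DMSO in these 4 comparisons.

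Beta cell markers fell in βTC3 while insulin itself did not pass. Of 12 measured, 6 fell in βTC3 at 6 h and 8 at 24 h, and none rose, against falls of 17.9% and 18.1% of all genes. All 8 fell at least 2-fold at 24 h, as did 3.79% of all genes, and the median log2 change was -1.40. Pdx1, the master factor of pancreas and beta cells, had 7.20, 7.49 and 7.54 at 6 h, against 9.14 to 9.63 (4.66-fold lower, adjusted p = 1.88e-23), and 7.78, 7.34 and 6.77 at 24 h, against 8.55 to 9.73 (4.21-fold lower). Nkx6-1, a homeobox factor of beta cells, fell by a log2 of 1.40 at 6 h, and Trpm5, a cation channel, by 1.70 and G6pc2 by 3.03 at 24 h. Ins2 changed by a log2 of -0.04 (SE 0.062, adjusted p = 0.696) at 24 h, and it lay near the highest intensity of the table, where saturation was not tested. Levels summed over the 12 markers were 10900 to 12400 under CRA-024781 and 13400 to 17100 under DMSO in βTC3 at 24 h. Ins2 made up most of these sums, with a mean log2 intensity of 13.13 under CRA-024781 and 13.20 under DMSO. Among the markers not called then, Slc2a2 and Ucn3 read near the floor of the array, with DMSO means of 2.98 and 2.96.

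Most alpha cell markers fell in αTC1. Of 7 measured, 5 fell in αTC1 at 6 h and at 24 h, against 15.2% and 19.1% of all genes, with median log2 changes of -1.38 and -1.39. Irx1, an Iroquois factor of alpha cells, had 5.54, 5.34 and 5.71 at 6 h under CRA-024781, against 7.07 to 7.64 under DMSO (3.67-fold lower, adjusted p = 1.09e-19), and it was 3.23-fold lower at 24 h with no overlap at either time. Etv1 fell by a log2 of 1.61 at both times and Slc7a2, a transporter of arginine and lysine, by 1.44 and 1.60. Not all of these markers were particular to αTC1. Under DMSO at 6 h Etv1 had a mean of 10.15 in αTC1 and 9.89 in βTC3, where it fell by 1.53 at 6 h and 0.75 at 24 h. Ttr, among the falls in αTC1 at 24 h, had DMSO means of 11.40 there and 12.87 in βTC3. Irx1 had a DMSO mean of only 3.00 in βTC3 at 6 h. Gcg was not called at any time, with a log2 change of 0.10 at 24 h (SE 0.11, adjusted p = 0.512), and it too lay near the highest intensity. Under the same drug Ins2 in αTC1 had 6.29, 6.84 and 3.75 at 24 h, against 3.37 to 5.78 (log2 change 1.50, adjusted p = 0.0443), so that 2 arrays were above DMSO and the other lay within it. Without replicate 1 or 2 of CRA-024781 it was not called (adjusted p = 0.197 and 0.408), and without replicate 3 the change was 2.39. DMSO arrays of αTC1 reached 7.75 for Ins2 at 1 h.

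Markers of other islet hormone cells rose in part in αTC1 at 24 h. Of 6 measured, 4 rose at 24 h and none fell, against 21.1% of all genes that rose, and none was called at 6 h. Sst, somatostatin of delta cells, had 4.96, 6.30 and 4.77 under CRA-024781, against 3.47 to 4.68 under DMSO (log2 change 1.43, SE 0.35, adjusted p = 5.3e-04), and Hhex, a factor of delta cells, had 4.37, 4.57 and 4.69, against 3.24 to 3.80 (log2 change 0.97, SE 0.15). Levels summed over the 6 were 2860 to 3250 under CRA-024781 and 1700 to 2790 under DMSO. That sum mostly follows Rbp4, which was bright in αTC1 itself, with a mean log2 intensity of 11.53 under CRA-024781 and 10.96 under DMSO. Sst had means of 5.34 and 3.99. Of the 12 beta cell markers, 2 rose and 4 fell in αTC1 at 24 h. The part of these cells in the falls of alpha cell markers was not tested.

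Genes of the secretory machinery gave other counts. Of 18 genes for hormone processing and exocytosis, 7 rose and 3 fell in αTC1 at 24 h, where 21.1% of all genes rose and 19.1% fell. In βTC3 3 rose and 10 fell, beside 21.1% and 18.1%. Stx1a, a syntaxin of the exocytosis complex, rose in both lines, by a log2 of 1.38 in αTC1 and 1.32 in βTC3 at 24 h. The granins Scg3 and Chgb rose by 1.31 and 1.17 in αTC1, and in βTC3 Vamp2, a vesicle SNARE, and Abcc8, the sulfonylurea receptor, fell by 0.78 and 0.75. Without replicate 3 of CRA-024781 the change of Abcc8 was -0.31 and not called (adjusted p = 0.0952). Among ion channels Cacna1c, a calcium channel subunit, fell by 1.73 in αTC1 and 1.76 in βTC3.

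Most genes of cholesterol synthesis rose at 6 h, and fewer were called higher at 24 h. Of 14 genes, 11 rose in αTC1 and none fell, and 11 rose and 1 fell in βTC3 at 6 h, against 19.7% and 20.5% of all genes. The median log2 changes were 0.89 and 0.80. At 24 h αTC1 had 4 rises and 2 falls, βTC3 had 2 of each, and the medians were 0.11 and -0.07. Of all genes 21.1% rose at 24 h in each line, and 19.1% fell in αTC1 and 18.1% in βTC3. Msmo1, an enzyme late in the pathway, had 10.06, 9.69 and 9.69 in αTC1 at 6 h, against 7.10 to 9.70 under DMSO (2.58-fold higher, adjusted p = 2.09e-10), which overlaps the highest DMSO array, and within the array's own batch the 3 log2 changes were 0.36, 1.67 and 1.64. Hsd17b7 had 8.68, 8.55 and 8.65 in βTC3 at 6 h, against 5.24 to 7.16 (4.93-fold higher, adjusted p = 2.36e-19), and it was still higher at 24 h, by a log2 of 1.00 in βTC3 (adjusted p = 2.15e-06) and 1.10 in αTC1 (adjusted p = 1.27e-05). Cyp51, in the same pathway, did not rise: it changed by a log2 of -0.10 in αTC1 (adjusted p = 0.498) and by -0.26 in βTC3 at 6 h (adjusted p = 0.0289), where it was not called without replicate 1 of CRA-024781 (adjusted p = 0.254). The difference between times passed downward for 6 of 14 genes in αTC1 and 10 of 14 in βTC3. Of all genes 7.49% and 9.17% passed in that direction.

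Of 9 genes of fatty acid synthesis, αTC1 had 3 rises and 5 falls at 6 h, where 19.7% of all genes rose and 15.2% fell. In βTC3 there were 2 rises and 3 falls at 6 h, beside 20.5% and 17.9%. At 24 h αTC1 had 3 rises and 4 falls, beside 21.1% and 19.1% of all genes. In βTC3 there were then 2 rises and 4 falls, beside 21.1% and 18.1%. Fads2, a desaturase, fell by a log2 of 1.55 in αTC1 and 1.54 in βTC3 at 24 h, and Fasn, fatty acid synthase, by 1.15 and 0.85. Elovl5, an elongase, rose by 0.88 and 0.89.

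Glutathione transferases rose in both lines. Of 13, 8 rose in αTC1 and 5 in βTC3 at 6 h, against 19.7% and 20.5% of all genes. The numbers that rose at 24 h were 11 in αTC1 and 8 in βTC3. At 24 h 21.1% of all genes rose in either line. None fell. The median log2 change at 24 h was 0.93 in αTC1 and 0.51 in βTC3. Gstk1, a mitochondrial and peroxisomal form, had 7.69, 7.17 and 8.06 in βTC3 at 24 h under CRA-024781, against 3.41 to 4.28 under DMSO (11.8-fold higher, adjusted p = 2.01e-24), and 8.17, 8.15 and 7.31 against 5.26 to 6.49 in αTC1 (4.34-fold higher). Gsta4 reached 4.91, 5.13 and 6.13 in βTC3, against 3.15 to 3.46 (4.33-fold higher), which is less than its 32.6-fold in αTC1, and the difference between lines was 2.91 on the log2 scale (SE 0.33, adjusted p = 7.06e-13). The targets of NRF2, a factor that answers oxidative stress, had no common direction at 24 h. Of 10, 4 rose and 4 fell in αTC1, against 21.1% and 19.1% of all genes. In βTC3 3 rose and 3 fell, against 21.1% and 18.1%.

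Most antigen presentation genes rose in αTC1 at 24 h. Of 7, 5 rose and 1 fell, against 21.1% and 19.1% of all genes, with a median log2 change of 1.65. In βTC3 3 rose and 3 fell, beside 21.1% and 18.1%, with a median of 0.29. H2-D1, a class I histocompatibility gene, had 9.25, 9.17 and 8.58 in αTC1 under CRA-024781, against 5.80 to 6.51 under DMSO (7.2-fold higher, adjusted p = 2.89e-19). In βTC3, which had more of it under DMSO, it had 11.15, 10.54 and 11.32, against 10.19 to 10.95 (1.36-fold higher, adjusted p = 0.00282), and without replicate 3 of CRA-024781 this was not called (adjusted p = 0.169). H2 class I genes are near-identical copies, so their probe sets may read more than 1 of them. The subunits of the immunoproteasome went in opposite directions, as Psmb9 rose by a log2 of 1.99 in αTC1 and 0.93 in βTC3 and Psmb10 fell by 2.38 and 1.63, and Psmb8 fell by 2.30 in βTC3. Averaged over its probe sets, Psmb9 rose by 0.77 in αTC1 and 0.35 in βTC3.

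Of 7 interferon response genes, 5 rose in αTC1 at 24 h and none fell, where 21.1% of all genes rose. In βTC3 2 rose and 1 fell, a count near the 21.1% and 18.1% of all genes. Rsad2 was far ahead of the others. Ifit2, Irf7 and Usp18 rose in αTC1 by a log2 of 1.49, 1.20 and 0.62, and in βTC3 Irf7 rose by 0.59 and Usp18 fell by 1.06. Usp18 in αTC1 was not called without replicate 1 of CRA-024781 (adjusted p = 0.0586). In βTC3 Rsad2 had 7.56, 7.97 and 6.89 at 24 h, against 3.71 to 4.99 (9.37-fold higher, log2 change 3.23, adjusted p = 3.88e-24), and the mean of its probe sets rose by 1.81. Its promoter, picked after its values were seen, is shown with capitals for the letters that match GAAA, any 2 bases and GAAA again, the core of the element known from interferon-induced genes, here on the opposite strand at -120.
Rsad2, chr12:26456403-26456702, minus strand: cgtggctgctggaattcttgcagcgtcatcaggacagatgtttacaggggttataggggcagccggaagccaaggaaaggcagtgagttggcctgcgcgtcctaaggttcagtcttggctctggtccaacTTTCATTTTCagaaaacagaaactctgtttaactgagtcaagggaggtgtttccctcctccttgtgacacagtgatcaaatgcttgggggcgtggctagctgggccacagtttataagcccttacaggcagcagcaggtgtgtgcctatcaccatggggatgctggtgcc
This pattern was held by 3.44% of all 32851 promoters.

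About 1 in 2 stress genes of the endoplasmic reticulum rose at 6 h in αTC1, and most fell at 24 h in βTC3. Of 15, 8 rose in αTC1 and none fell at 6 h, against 19.7% of all genes that rose, with Creld2 at a log2 of 1.12. In βTC3 2 rose and 2 fell, beside 20.5% and 17.9%. At 24 h 11 fell in βTC3, against 18.1% of all genes, and none rose, with a median of -0.51. In αTC1 6 rose and 6 fell at 24 h, against 21.1% and 19.1% of all genes. Atf4, the factor at the head of the amino acid response, had 9.06, 8.92 and 9.42 in βTC3 at 24 h under CRA-024781, against 9.94 to 10.70 under DMSO (2.41-fold lower, adjusted p = 5e-13), and 9.0, 8.98 and 8.33 in αTC1, against 9.59 to 10.41 (2.82-fold lower). Averaged over its probe sets it fell by a log2 of 0.58 in βTC3 and 0.95 in αTC1. Herpud1, which acts in the removal of misfolded proteins, fell by a log2 of 1.31 in βTC3 and 1.04 in αTC1, and Trib3, a target of ATF4, by 1.37 in βTC3. Xbp1, a factor of the unfolded protein response, fell 2.03-fold in βTC3 at 6 h and did not pass in αTC1 (log2 change 0.03, adjusted p = 0.881).

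Heat shock genes were led by Hspa1b, an HSP70 with a near-identical copy, and by Hspb1. Hspb1, a small heat shock protein, had 8.43, 8.38 and 8.39 in βTC3 at 24 h under CRA-024781, against 5.33 to 6.20 under DMSO (6.06-fold higher, log2 change 2.60, adjusted p = 1.97e-20), and the mean of its probe sets rose by 1.29. In αTC1 it read 4.17, 4.07 and 4.20, against 3.67 to 4.43 (log2 change -0.03, adjusted p = 0.918). Hspa1b rose by a log2 of 2.28 in βTC3 and 1.36 in αTC1 at 6 h. The list as a whole had no common direction, with 2 up and 2 down of 8 in αTC1 and 3 up and 4 down in βTC3 at 24 h. Of all genes 21.1% rose and 19.1% fell in αTC1, and 21.1% and 18.1% in βTC3.

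Immediate early genes were called higher more often than lower. Of 15, 6 rose in αTC1 at 6 h and 10 rose with 1 fall at 24 h, against 19.7% and 21.1% of all genes that rose, with medians of 0.26 and 1.01. In βTC3 9 rose and 3 fell at 6 h and 6 rose and 1 fell at 24 h, against 20.5% and 21.1%. Egr1, an early growth response factor, rose by a log2 of 1.77 in αTC1 and 1.90 in βTC3 at 24 h, and Atf3, a stress factor, by 2.19 in αTC1. Of the 18 early responders to deacetylase inhibitors named above, 9 rose in αTC1 and none fell at 24 h, with Cited2 at 1.75 and Sertad2 at 1.54, and 7 rose and 3 fell in βTC3, against 21.1% of all genes that rose in each line.

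Genes of lysosomes and autophagy rose more in αTC1 than in βTC3. Of 11, 7 rose at 24 h in αTC1 with a median log2 change of 0.77, and 6 rose and 1 fell in βTC3 with a median of 0.22, where 21.1% of all genes rose in each line. The cathepsins Ctsl and Ctsb, proteases of the lysosome, rose by 1.96 and 1.21 in αTC1 and Lamp2, a lysosomal membrane protein, by 1.35. The test of the difference between lines passed for 7 of the 11, all higher in αTC1, where 12% of all genes passed in that direction.

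Genes of cell death and of the p53 pathway gave mixed counts. Of 15 death regulators, αTC1 had 5 rises and 4 falls at 6 h, and βTC3 had 5 of each. Bid, a BH3 protein that links death receptors to mitochondria, rose by a log2 of 1.60 in αTC1 and 2.22 in βTC3 at 6 h, and Apaf1, the core of the apoptosome, by 1.80 in αTC1. Xiap, an inhibitor of caspases, fell by 0.98 and 1.06, and by 0.57 and 0.58 as the mean of its probe sets. Of 13 p53 targets, αTC1 had 1 rise and 4 falls at 6 h, and βTC3 had 5 rises and 1 fall, beside rises of 19.7% and 20.5% and falls of 15.2% and 17.9% of all genes. Both probe sets of Casp9 disagreed in sign in βTC3 at 24 h (0.49 and -0.38), so it is not read here.

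The lines shared much of the response. Of the genes that rose at 6 h, 1598 rose in both lines, which is 68.8% of those in αTC1 and 66.1% of those in βTC3, and 1198 fell in both (66.7% and 56.7%). At 24 h 1468 rose in both (58.9% and 59%) and 1266 fell in both (56.2% and 59.3%). At 6 h 61 genes rose in αTC1 and fell in βTC3 and 70 did the reverse, and at 24 h these were 133 and 125. Over all genes the log2 changes of the lines correlated with r = 0.71 at 6 h and 0.63 at 24 h, a description, since genes are not independent replicates. Changed at least 2-fold in both lines at both 6 and 24 h were 129 genes that rose, led by Rsad2, Abhd3, Rab40b, Akap12 and Rras, and 85 that fell, led by G6pc2, D17H6S56E-5, Tk1, Slc38a4 and Emp1.

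**Figure D4:**
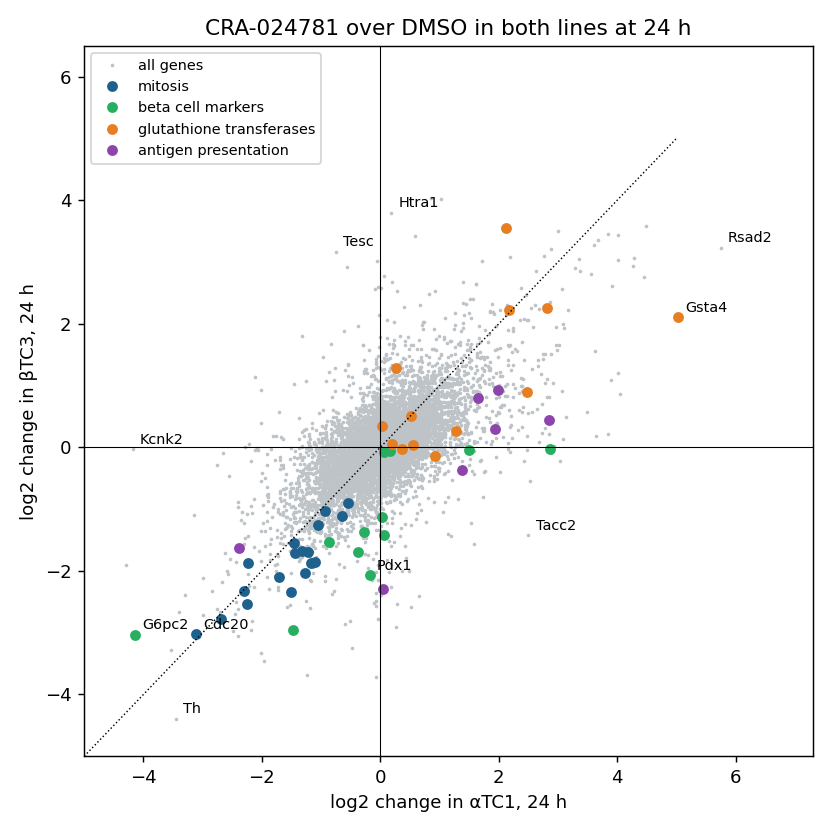
Log2 change under CRA-024781 against DMSO at 24 h for 11807 genes, αTC1 on the horizontal and βTC3 on the vertical axis, with 4 gene lists in colour; the dotted line marks equal change. Mitosis genes lie in the lower left with medians of -1.38 and -1.87, and of the beta cell markers Pdx1 lies low on the vertical axis and G6pc2 low on both.

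The size of the response differed between lines for many genes. The test of the difference (the change in αTC1 minus that in βTC3) called 1754 genes at 6 h (14.9%, with 8.13% above 0 and 6.72% below) and 2723 at 24 h (23.1%, with 12% above 0 and 11.1% below). Tacc2, a centrosomal protein, went in opposite directions. In αTC1 at 24 h it had 8.61, 8.35 and 9.98 under CRA-024781, against 5.58 to 6.98 under DMSO (5.66-fold higher), and in βTC3 5.74, 6.09 and 4.53, against 6.15 to 7.74 (2.69-fold lower), a difference of 3.93 on the log2 scale (SE 0.30, adjusted p = 7.7e-23). Mcrip2 was the reverse, with a difference of -3.26, at 5.96, 6.02 and 6.08 against 7.74 to 8.39 in αTC1 and 5.15, 5.34 and 5.66 against 3.98 to 4.55 in βTC3. The other called genes with 2-fold changes in opposite directions at 24 h were Mlxipl, Nfix, Ids, Cdhr1, Fkbp1b, Cited1, Deptor and Cald1, and at 6 h Sim1 and Tacc2.

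Several of the largest differences belonged to genes that 1 line hardly expressed under DMSO. Kcnk2 had a DMSO median of 7.91 in αTC1 and 3.07 in βTC3 at 24 h, and it fell in αTC1 and changed by a log2 of -0.03 in βTC3 (adjusted p = 0.866). Meox2 had a DMSO median of 2.86 in αTC1 and 9.60 in βTC3 at that time. A gene near the floor of the array has no room to fall, and the difference for such a gene does not compare responses of expressed genes. Adh4, an alcohol dehydrogenase, was dim in both lines under DMSO, with medians of 2.84 and 2.77. It rose to 5.90, 6.80 and 6.07 in αTC1 at 24 h (12.5-fold) and had 3.06, 3.12 and 2.77 in βTC3 (adjusted p = 0.12), a difference of 3.46 (SE 0.29, adjusted p = 7.71e-20). The other large differences at 24 h were Tm4sf4, Phf20l1 and Adh1, at 3.25 to 3.64 (1.44 for Phf20l1 as the mean of its probe sets), and Tesc, Htra1 and Lpl, at -3.92 to -3.48.

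Between 6 and 24 h most called genes kept their direction. Of the genes that rose at 6 h, 1629 also rose at 24 h in αTC1 (70.1% of those at 6 h and 65.4% of those at 24 h) and 1559 in βTC3 (64.4% and 62.6%). Of those that fell, 1302 fell again in αTC1 (72.5% and 57.8%) and 1371 in βTC3 (64.9% and 64.2%). The test of the difference between times (24 h minus 6 h) called 1660 genes in αTC1 (14.1%) and 2146 in βTC3 (18.2%), and 958 in αTC1 without replicate 3 of CRA-024781 and 1428 in βTC3 without replicate 1. The largest late rises were Adh4, Hba-a1, Ceacam10, Nos1 and Srgn in αTC1, at 2.96 to 3.40 more on the log2 scale, and Dpyd, Hba-a1, Htra1, Neat1 and Sqor in βTC3, at 2.41 to 3.89. The largest late falls were Cryba2, Th, Ugt1a6a, Ap4s1 and Ptpmt1 in αTC1, at -3.71 to -2.26, and Th, C1qa, Cdo1, Tm4sf4 and Hepacam2 in βTC3, at -3.59 to -2.31.

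The series holds 7 other hydroxamic acids, each at its own dose, so their values stand beside those of CRA-024781 and are not matched in dose. All comparisons with DMSO share the same DMSO arrays. At 24 h CRA-024781 at 1.5 µM called 4742 genes in αTC1 and 4624 in βTC3. PXD101 at 2.4 µM called 4842 and 5003, ITF-2357 at 10 µM 5453 and 4766, trichostatin A at 0.22 µM 5057 and 3589, and pyroxamide at 10 µM 4864 and 3194. SAHA at 1.3 µM called 2445 and 1615, LBH-589 at 0.015 µM 1776 and 745, and scriptaid at 2 µM 50 and 6. SAHA and scriptaid had 2 arrays each in αTC1 at 24 h and all other groups 3.

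**Figure D5:**
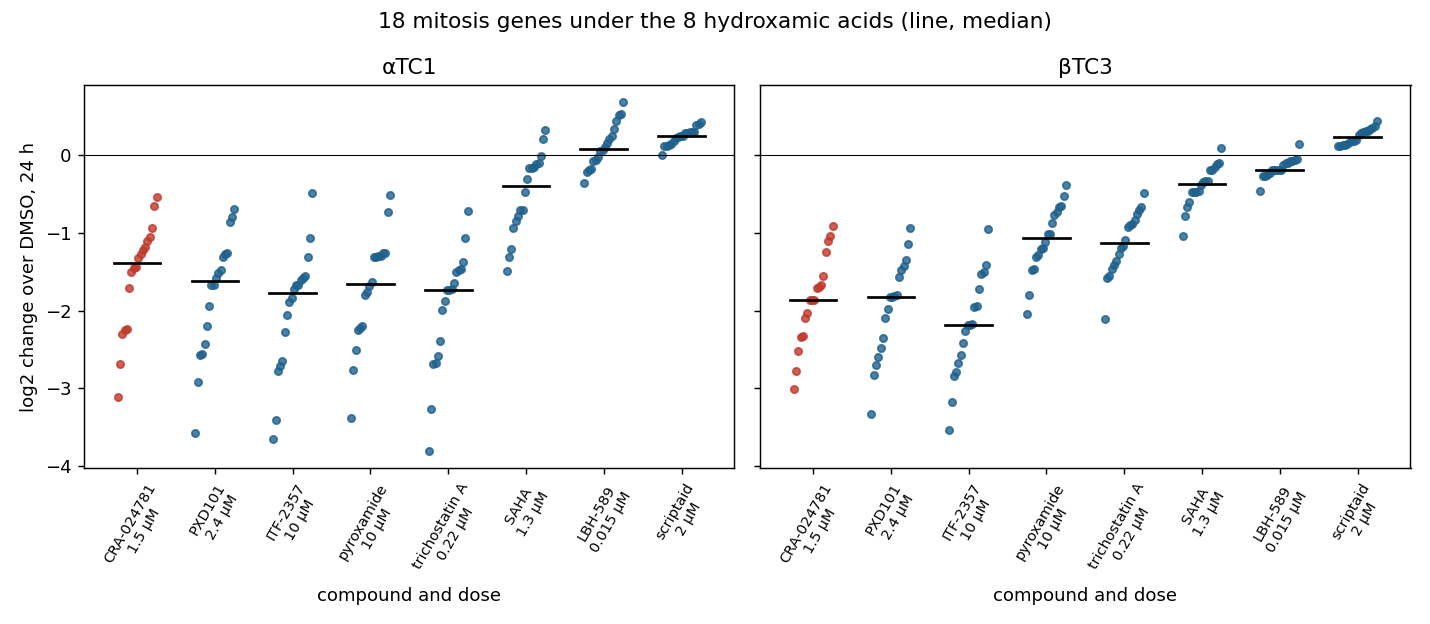
Log2 change against DMSO at 24 h of each of the 18 mitosis genes (points) under CRA-024781 (red) and the 7 other hydroxamic acids (blue) at the doses given, αTC1 left and βTC3 right; bars are medians. CRA-024781 has medians of -1.38 and -1.87, and scriptaid, LBH-589 and SAHA lie nearest to 0.

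The mitosis genes give the same picture by compound. All 18 fell in both lines under CRA-024781, trichostatin A, PXD101, ITF-2357 and pyroxamide at these doses. Under SAHA 8 fell in each line, under LBH-589 none fell in αTC1 and 1 in βTC3, and under scriptaid none fell. The median log2 change in αTC1 was -1.38 for CRA-024781, -1.73 for trichostatin A, -1.62 for PXD101, -1.78 for ITF-2357 and -1.66 for pyroxamide, and in βTC3 -1.87, -1.13, -1.83, -2.18 and -1.07 in the same order. Beta cell markers in βTC3 had a median of -1.40 under CRA-024781, -1.40 under PXD101, -1.51 under ITF-2357, -0.59 under trichostatin A and -0.48 under pyroxamide.

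Set against the equally weighted mean of the 7 others at their doses, CRA-024781 differed for 383 genes in αTC1 (3.24%), 297 higher (2.52%) and 86 lower (0.728%), and for 1865 in βTC3 (15.8%), 986 higher (8.35%) and 879 lower (7.44%). With only the arrays of the groups compared in the model, the test called 37 genes in αTC1 and 181 in βTC3. In αTC1 113 genes were called without replicate 1 of CRA-024781 and 87 without replicate 2. In αTC1 Srgn, the proteoglycan serglycin, had the largest excess, at 2.17 on the log2 scale (SE 0.20, adjusted p = 3.42e-12), followed by Adh4, Fabp4, Arg2 and Nos1 at 1.43 to 1.54, and G6pc2, Kcnk2, Th, Cryba2 and Tat were lower by the most, at -1.52 to -1.18, where Tat was not called without replicate 2 or 3 (adjusted p = 0.0997 and 0.125) or Cryba2 without replicate 1 (adjusted p = 0.123). In βTC3 the largest excesses were Fscn1, Crabp2, Htra1, Ccnd2 and Hba-a1 at 1.79 to 2.04, and Hepacam2, Th, Tm4sf4, Slc2a5 and Galr1 were lower by the most, at -2.15 to -1.66. Against DMSO Adh4 in αTC1 rose by a log2 of 3.65 under CRA-024781 and 4.05 under ITF-2357. It rose by 3.58 under PXD101, 3.26 under pyroxamide and 2.92 under trichostatin A. Under SAHA, LBH-589 and scriptaid it changed by 0.41, 0.31 and 0.21. Arg2 in αTC1 changed by 3.56, 3.83, 2.94, 3.46, 3.27, 0.66, 0.74 and -0.10 in the same order. An excess over the mean thus does not set CRA-024781 apart from each of the 7. The mean includes scriptaid, LBH-589 and SAHA at doses with smaller responses, so compound and dose cannot be told apart.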

How the data were processed

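Total RNA (1 µg) was labelled as biotin cRNA and hybridised to Affymetrix arrays, per the labels' protocols. The deposited table holds linear intensity values from RMA, per the submitters' processing notes; its version, the arrays normalized together and any batch correction are not given in the sources used here. The deposited intensities (3.962 to 13635, 22716 probe sets) were turned to log2 here, and array medians lay between 4.363 and 4.729. Of the probe sets 18003 had 1 gene symbol, 287 several and 4426 none in the platform annotation; the brightest on average stood for each of 11807 genes, 4150 of which had more than 1.

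Each line and time was fitted with all its arrays and batch as a term in limma 3.58.1 (R 4.3.3), with Benjamini-Hochberg adjustment over all genes. Differences between lines or times were contrasts of the same model with batch within each line and time. The procedure was tested on simulated data. No array was dropped, and their number limits the precision. The genes named were the largest changes with no overlap of arrays, the largest members of each gene list and a preset list. The compound, the lists and the tests were chosen with earlier results of these data known. Alternatives varied the batch term, DMSO arrays, plate, normalization, filter, probe sets, variance model and replicates. Promoters came from RefSeq (GRCm38.p6).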

Additional observations from a re-analysis of the deposited data

Results flagged for a closer look

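In the group with 10 DMSO arrays, βTC3 at 6 h, single arrays stood apart from the other 9 for 8 of the 166 named genes, and chance alone gives about 1 group in 20. The arrays belonged to several batches. Those of batch 7 held Clp1 at a log2 intensity of 6.23 (the others 5.77 to 5.99) and Emp1 at 6.57 (5.57 to 6.03). Batch 8 held Hspb1 at 6.79 (5.54 to 6.10) and Rwdd3 at 3.32 (3.78 to 4.23), and batch 9 held Ins2 at 13.49 (13.19 to 13.27). Batch 10 held Kcnk2 at 3.40 (2.83 to 3.12), Mfge8 at 4.90 (3.70 to 4.27) and Stx1a at 6.32 (5.53 to 5.85). Groups of 3 or of more than 10 arrays were not looked at in this way.

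The effect of CRA-024781 differed between αTC1 and βTC3 by limma's test of that difference for 1754 genes at 6 h and 2723 at 24 h. At 24 h, with the change in αTC1 minus that in βTC3 on the log2 scale, the differences were 3.93 for Tacc2, 3.64 for Tm4sf4, 3.62 for Phf20l1, 3.46 for Adh4, 3.25 for Adh1 and 2.91 for Gsta4. They were -3.92 for Tesc, -3.62 for Htra1, -3.48 for Lpl and -3.26 for Mcrip2.

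The effect also differed between 24 h and 6 h for 1660 genes in αTC1 and 2146 in βTC3. With the change at 24 h minus that at 6 h, αTC1 had 3.40 for Adh4, 3.27 for Hba-a1, 3.02 for Ceacam10, 2.98 for Nos1 and 2.96 for Srgn. On the other side it had -3.71 for Cryba2, -3.06 for Th, -2.58 for Ugt1a6a, -2.44 for Ap4s1 and -2.26 for Ptpmt1. In βTC3 the values were 3.89 for Dpyd, 3.00 for Hba-a1, 2.76 for Htra1, 2.64 for Neat1 and 2.41 for Sqor, and -3.59 for Th, -2.93 for C1qa, -2.55 for Cdo1, -2.54 for Tm4sf4 and -2.31 for Hepacam2.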

How the results depend on the processing

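The counts at 6 and 24 h against DMSO stayed within 1.5 times under all alternatives run; leaving out 1 CRA-024781 array gave 3515 to 3674 and 4025 to 4343 in αTC1, and 4039 to 4106 and 4027 to 4178 in βTC3. The counts at 1 h did not. In αTC1 the 7 genes became 16 with plate as a random block, 3 with arrays centred on their medians, 3 with quantile normalization, 4 without dim genes, 4 with only the arrays compared, 1 with DMSO arrays of the same batches, and 0 in limma without the batch term, where 345 genes had an unadjusted p under 0.05; leave-one-out gave 1 to 6. In βTC3 the 80 became 19 with the plate block, 138 centred, 385 without dim genes, 5 with DMSO of the same batches and 1 with only the arrays compared; leave-one-out gave 8 to 1337. The split of higher and lower calls there moved to 50 and 88 when centred. The difference between lines gave 1208 to 1369 genes at 6 h and 2074 to 2421 at 24 h on leaving out 1 array. That between times gave 958 to 1425 in αTC1 and 1428 to 1838 in βTC3, and 1371 in βTC3 without the batch term. Against the other hydroxamic acids αTC1 had 246 with the plate block, 224 without dim genes (147 higher, 77 lower), 37 with only the arrays compared, and 87 to 279 on leave-one-out; βTC3 had 181 with only the arrays compared and 1452 to 1500. The causes of these moves were not tested.

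Of the alternatives run for 670 results of named genes, 7545 kept direction and side of the threshold, 295 lost the call, 9 gained it and 1 turned. That 1 was Phf20l1 in βTC3 at 24 h, whose log2 change of 0.22 became -0.05 as the mean of all probe sets.

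Replicate numbers did not pair the arrays: the deviations of same-numbered arrays correlated at -0.49 to 0.23. With the replicate block the differences between lines gave 1770 and 2734 genes at 6 and 24 h, those between times 1697 in αTC1 and 2201 in βTC3, and those from the other hydroxamic acids 384 and 1967. Against DMSO no paired analysis was possible because the DMSO titles hold no replicate number.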

Other observations

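Of 18 genes typical of neurons, αTC1 had 6 rises and 6 falls at 24 h, where 21.1% of all genes rose and 19.1% fell, and βTC3 had 7 rises and 5 falls, beside 21.1% and 18.1%. L1cam, an adhesion molecule of axons, had a log2 intensity of 7.18, 7.21 and 7.63 in αTC1 under 24 h of CRA-024781, against 3.66 to 4.75 under DMSO (8.59-fold higher, log2 change 3.10, adjusted p = 7.93e-19). In βTC3 it had 7.57, 7.83 and 7.53, against 5.29 to 6.20 (3.81-fold higher). As the mean of its probe sets it rose by a log2 of 1.69 in αTC1 and 1.26 in βTC3. Syn2, a protein of synaptic vesicles, rose without overlap in all 4 comparisons at 6 and 24 h, by a log2 of 1.04 to 1.89. Stmn3, which binds tubulin, fell 2.37-fold in βTC3 at 24 h, at 9.71, 10.10 and 9.24 against 10.65 to 11.21.

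Imprinted genes are read from only 1 parent's copy. Of 11 measured, αTC1 had 5 rises and 1 fall at 24 h, against 21.1% and 19.1% of all genes. In βTC3 there were 2 of each, a count near the 21.1% and 18.1% of all genes. Igf2, a fetal growth factor, had 5.66, 5.69 and 5.42 in αTC1, against 3.34 to 4.21 (4.06-fold higher, adjusted p = 7.52e-15), and 1.11 on the log2 scale as the mean of its probe sets. In βTC3, where it was bright, it had 10.19, 10.22 and 10.21, against 10.20 to 11.19 (1.32-fold lower, adjusted p = 0.00161). Plagl1, a zinc finger factor, rose 2.41-fold in αTC1 at 24 h without overlap and was not called in βTC3 (log2 change 0.01, adjusted p = 0.929).

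Of 12 ribosomal protein genes, 1 passed in αTC1 at 24 h and 5 in βTC3, none by 2-fold, where 40.2% of all genes passed in αTC1 and 39.2% in βTC3. Of 10 genes of DNA repair, αTC1 had 3 rises and 2 falls at 24 h, and βTC3 had 2 rises and 5 falls, where 18.1% of all genes fell. Mre11a, a nuclease at DNA breaks, fell without overlap in all 4 comparisons at 6 and 24 h, by a log2 of 0.63 to 0.94.

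Genes that fell at least 2-fold were rarely dim under DMSO. Those below the median gene made up 4.03% of 521 in αTC1 and 3.79% of 448 in βTC3 at 24 h, against 43.5% of 690 and 54.1% of 512 among genes that rose at least 2-fold. The floor of the array bounds the falls that dim genes can show.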
